A study of Mus musculus with 40 samples.

Results

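Thapsigargin treatment of mouse developing oligodendrocytes for 8 h was compared with untreated cells collected at 8 h. The comparison takes 4 libraries against 4, chosen by the treatment and time point that the labels give each library, and so 8 of the 40 bulk RNA sequencing libraries of the series. All cells came from wild-type C57BL/6 mice. Progenitors were immunopanned from cortices of pups of 6 to 7 days (the tissue label itself reads whole brain), taken through 2 passages and left to differentiate for 12 to 14 h before plates were assigned to treatment at random. The treated cells received thapsigargin at 200 uM as the labels state it, which is high for a drug commonly used in the nanomolar range and may be a slip of the unit, and the controls received no treatment, with no vehicle named in the labels. A pair of further comparisons used cells of the same strain, with the same growth protocol in the labels: 4 thapsigargin and 4 untreated libraries at 1 h, and 4 libraries given interferon-gamma (IFN-gamma) at 200 U/ml for 8 h. The labels do not say which libraries come from separate pups, cultures or plates, so a p-value here weighs a difference only against the scatter of these libraries, which may be technical in part. Thapsigargin is a chemical stressor applied to purified cells in a dish, without the neurons and other glia that oligodendrocytes meet in the brain.

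Thapsigargin blocks the SERCA pumps, which load calcium into the endoplasmic reticulum (ER), and the folding of membrane and secreted proteins depends on that calcium. Unfolded protein in the ER is sensed by the kinase PERK (gene Eif2ak3), the kinase and nuclease IRE1 (Ern1) and the membrane-bound transcription factor ATF6. PERK slows translation through eIF2alpha and so favours translation of ATF4, which drives amino acid supply genes and CHOP (Ddit3), IRE1 splices the mRNA of XBP1, and cleaved ATF6 switches on chaperone genes, a programme known as the unfolded protein response (UPR). Oligodendrocytes make very large amounts of membrane and lipid for myelin, and the UPR has long been studied in them for that reason.

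The count table covered 39056 gene identifiers, of which 15135 passed a filter on low counts and were tested. Levels are given as CPM, read counts scaled to one fixed library total after TMM scaling, and since they are relative to the library, fewer cells of a kind and less RNA per cell cannot be told apart. CPM values are not divided by transcript length, so levels are compared between libraries and not between genes. At an adjusted p under 0.05 by the quasi-likelihood test of edgeR, which pooled the spread of each gene over all 10 groups of 4, 9174 genes (60.6% of those tested) differed at 8 h. Of these, 4482 (29.6%) were higher and 4692 (31%) lower with thapsigargin, 2960 of them by at least 2-fold, and 536 genes rose and 304 fell by at least 4-fold. The median log2 fold change over all genes tested was -0.01. The first principal component held 78.3% of the variance of the 8 libraries and separated the treatments. The second held 5.85% and set thapsigargin replicates 1 and 2 apart from replicates 3 and 4, and untreated replicate 4 apart from the other untreated libraries.

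Depth in the 8 libraries was 13165483 to 21384964 reads on genes. Features rich in ribosomal RNA took 7.01 and 4.44% of the reads of thapsigargin replicates 1 and 2, 0.586 and 1.21% in replicates 3 and 4, and 0.791 to 3.97% in untreated cells. Y-linked genes summed to 25 CPM in thapsigargin replicate 2, where Xist, which coats the silent X chromosome, reached 729 CPM, against 199 to 410 CPM for the Y-linked sum and at most 250 CPM for Xist in the other 7 libraries. With the Y-linked level as a covariate 9162 genes were called, and with the features rich in ribosomal RNA left out before scaling 9146. The labelled cell type was met by its markers: the transcription factors Olig2 and Sox10 and the receptor Pdgfra stood at 731, 555 and 2601 CPM or more in every untreated library. Of the markers of other cells, 12 of the 15 microglial genes fell below the filter, with at most 15 reads over 4 libraries of either group. The endothelial genes Cldn5 and Cdh5 had at most 2 reads and the fibroblast gene Col1a1 at most 7.

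**Figure D1:**
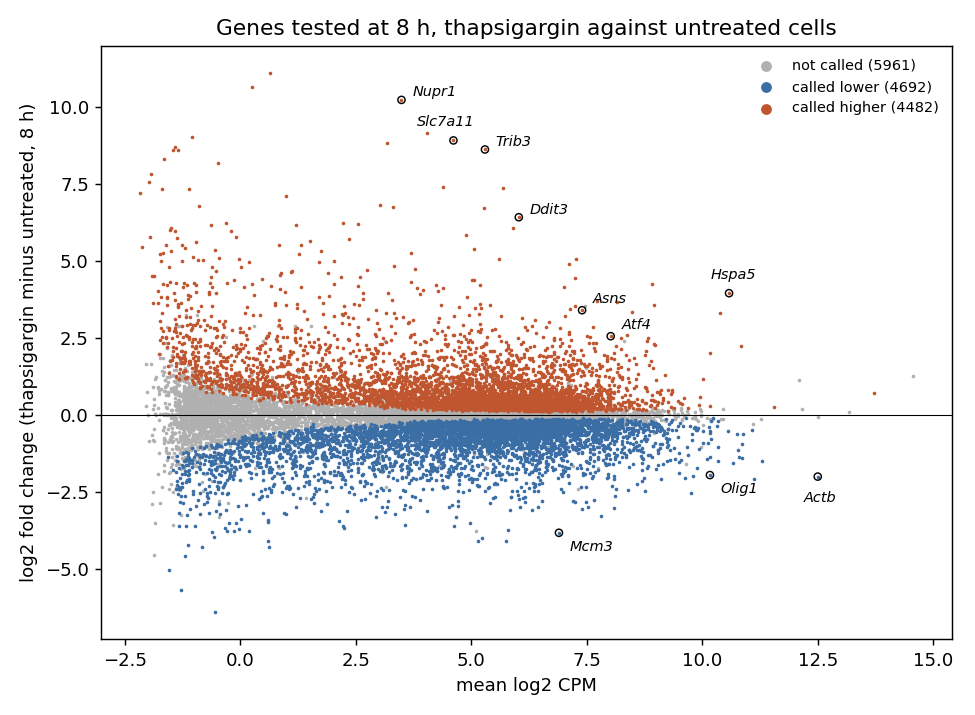
Each point is 1 of the 15135 genes tested, with mean log2 CPM on the x axis and log2 fold change (thapsigargin minus untreated, 8 h) on the y axis; genes with an adjusted p under 0.05 are coloured. Nupr1, Slc7a11, Trib3 and Ddit3 lie far above 0 and Hspa5 combines a large rise with a very high level, while Mcm3, Actb and Olig1 lie below 0.

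The targets of the drug themselves rose. Atp2a2, which encodes SERCA2, the pump of most non-muscle cells, was measured at 368, 361, 407 and 388 CPM in untreated replicates 1 to 4 and at 1209, 1287, 1326 and 1287 CPM with thapsigargin (log2 fold change 1.75, SE 0.06, adjusted p = 8.64e-23). Every treated library lay above every untreated one, which held for 27.8% of all genes tested. Atp2a3, which encodes SERCA3, was nearly absent from untreated cells, at 0.100, 0, 0.147 and 0.0714 CPM, and reached 5.96, 5.82, 5.67 and 6.43 CPM (log2 fold change 6.24, SE 0.82, adjusted p = 4.51e-08). Of 25 tested genes for SERCA pumps and store calcium, 16 rose and 6 fell, against 29.6 and 31% of all genes tested, with a median log2 fold change of 0.60 (all genes tested -0.01). Among those that rose were Creld2, an ER-resident calcium-binding protein (4.89, SE 0.11), Nucb2, a calcium-binding protein of the secretory pathway (4.22, SE 0.12), and Ryr2, a calcium release channel (2.59, SE 0.25). The release channels Itpr3 (-0.04, SE 0.43) and Ryr1 (0.12, SE 0.68) and the store-operated channel subunit Orai3 (0.04, SE 0.20) did not pass the test.

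The stress sensors differed among themselves. Atf6 rose from 57.7 ± 3.23 to 415 ± 13 CPM (mean ± SD, n = 4 libraries, as throughout; log2 fold change 2.85, SE 0.08, adjusted p = 8.75e-27) and Eif2ak3 from 71.5 ± 3.59 to 320.2 ± 8.996 CPM (log2 fold change 2.16, SE 0.06, adjusted p = 3.54e-27). Ern1 moved far less, with 16.8, 17.1, 19.3 and 20.6 CPM in untreated and 22.4, 22.7, 21.4 and 22.3 CPM in treated libraries (log2 fold change 0.27, SE 0.08, adjusted p = 0.00354). The Ern1 ranges did not overlap, but its call was lost in 2 of the alternatives, the fit on library numbers 21 to 40 alone and the fit without scaling of the library totals. Ppp1r15a (GADD34), the subunit that directs a phosphatase back to eIF2alpha, rose from 10.6 ± 0.539 to 219 ± 6.998 CPM (log2 fold change 4.37, SE 0.10, adjusted p = 3.35e-28). Eif2ak2, the kinase that responds to double-stranded RNA, was the 1 gene of the list that fell (log2 fold change -1.04, SE 0.11, adjusted p = 5.46e-10). In all, 8 of the 13 sensors, eIF2alpha kinases and phosphatase subunits rose, against 29.6% of all genes tested. Mbtps1, the protease that cuts ATF6 first (-0.08, SE 0.04), Eif2s1, which encodes eIF2alpha (-0.08, SE 0.07), and Eif2ak1 (0.02, SE 0.07) were among the 4 that did not pass.

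Stress transcription factors, in a list that also holds the pseudokinase Trib3, rose nearly as a block. Of 18 tested 17 rose, against 29.6% of all genes tested, with a median log2 fold change of 2.56. Ddit3, the factor CHOP, stood at 5.76, 7.99, 6.34 and 5.78 CPM in untreated libraries and at 582, 519, 569 and 567 CPM with thapsigargin (log2 fold change 6.42, SE 0.16, adjusted p = 3.16e-27). Atf3, a stress-induced repressor and activator, went from 0.401, 0.622, 0.589 and 0.357 CPM to 67.2, 57.3, 52.9 and 48.8 CPM (log2 fold change 6.81, SE 0.37, adjusted p = 9.86e-18). Neither gene had a treated library within the untreated range. Trib3, a pseudokinase that binds ATF4 and is induced by CHOP, rose from 0.920 ± 0.196 to 372 ± 17.8 CPM (log2 fold change 8.62, SE 0.35, adjusted p = 1.88e-21). Nupr1, a small chromatin protein induced by stress, had the largest fitted rise among called genes whose groups did not overlap and whose mean log2 CPM was 1 or more. It was at 0.100, 0.178, 0 and 0 CPM in untreated libraries and at 112, 107, 113 and 110.0 CPM in treated ones (log2 fold change 10.23, SE 0.55, adjusted p = 7.18e-18). Genes already well expressed rose too, Atf4 from 160.0 ± 19.1 to 943 ± 47.8 CPM (log2 fold change 2.56, SE 0.12, adjusted p = 2.12e-19) and Xbp1 from 76.4 ± 3.96 to 412 ± 16.4 CPM (log2 fold change 2.43, SE 0.09, adjusted p = 5.58e-23). Cebpb, a partner of CHOP (4.60, SE 0.35), and Creb3l1, a relative of ATF6 (4.17, SE 0.37), rose from low levels. Bhlhe40, a repressor of the circadian clock, was the factor that did not pass (log2 fold change -0.28, SE 0.13, adjusted p = 0.0566).

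**Figure D2:**
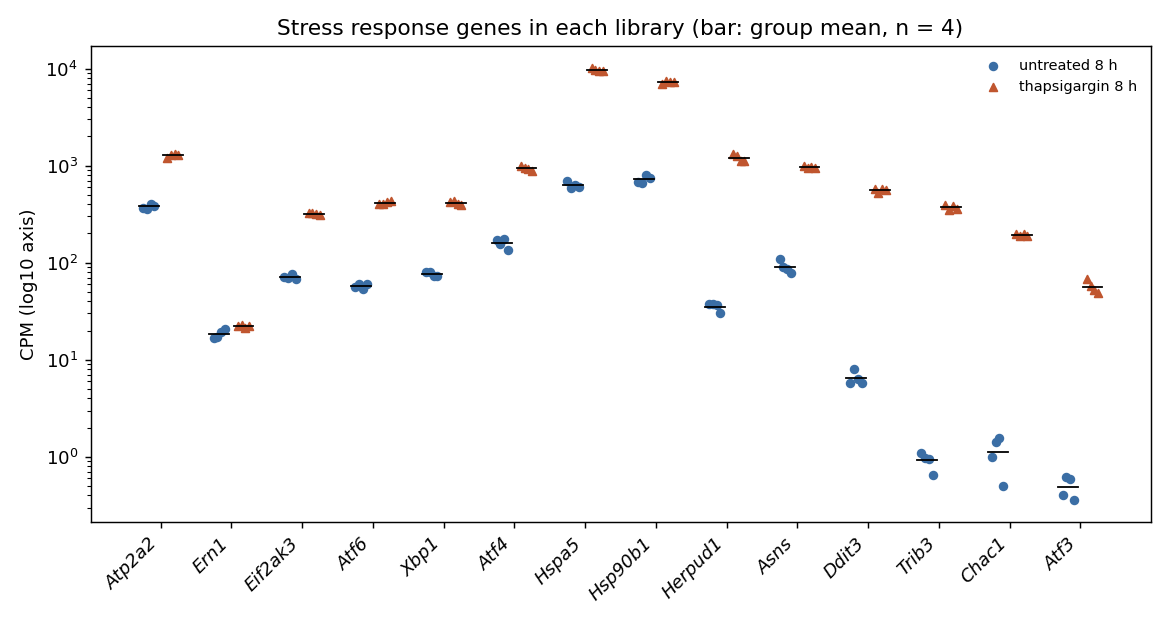
CPM on a log10 axis in each of the 4 untreated (circles) and 4 thapsigargin (triangles) libraries at 8 h for 14 genes of the stress response, with a bar at each group mean. The groups do not overlap for any of the 14 genes, and the gap is narrowest for Ern1, whose means are 18.4 to 22.2 CPM.

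ER chaperones and disulfide isomerases took a larger share of the transcriptome after treatment. All 30 genes of the list were tested and all 30 rose (29.6% of all genes tested did), with a median log2 fold change of 2.56. Their summed level went from between 5588 and 6121 CPM in untreated libraries to between 40550 and 42290 CPM. Hspa5, which encodes the chaperone BiP, was at 689.7, 589, 629.9 and 596 CPM without and 10250.0, 9786, 9483 and 9338 CPM with thapsigargin (log2 fold change 3.96, SE 0.07, adjusted p = 1.49e-30). Hsp90b1, which encodes GRP94, was at 685, 662, 797 and 754 CPM without and 6941, 7501, 7301 and 7241 CPM with thapsigargin (log2 fold change 3.32, SE 0.08, adjusted p = 2.19e-28). The 4 replicates of each group lay close together beside a gap of roughly an order of magnitude. Hyou1, a nucleotide exchange factor for BiP (4.25, SE 0.08), Pdia4, a disulfide isomerase (3.56, SE 0.06), Dnajb9, a J-domain cochaperone (3.82, SE 0.13), and Sdf2l1, a component of the BiP chaperone cycle (4.14, SE 0.11), rose by over 3 each on the log2 scale. Calr, the calcium-dependent lectin calreticulin, rose less, from 865 ± 36.5 to 3489 ± 125 CPM (log2 fold change 2.01, SE 0.08, adjusted p = 3.36e-21). Fkbp11, a prolyl isomerase of the ER, had the largest log2 fold change of the list (5.71, SE 0.17), and Ero1lb, an oxidase that feeds the isomerases, rose by 4.04.

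The rest of the ER followed in smaller steps, beside 29.6% of all genes tested that rose and 31% that fell. Of 27 genes for ER-associated degradation, which exports misfolded protein for the proteasome, 23 rose and none fell (median 0.92). Derl3, a channel component, was at 0.200, 0.133, 0.147 and 0.285 CPM in untreated libraries and at 95.01, 90.8, 76.99 and 86.2 CPM in treated ones (log2 fold change 8.82, SE 0.25, adjusted p = 4.29e-26). Herpud1, a scaffold of the same complex, went from 37.97, 37.3, 36.2 and 29.98 CPM to 1304, 1246, 1111 and 1116 CPM (log2 fold change 5.08, SE 0.14, adjusted p = 4.41e-26). For both genes the lowest treated library was far above the highest untreated one. The ubiquitin ligase Syvn1 (3.21, SE 0.10) and its partner Sel1l (3.36, SE 0.07) rose together, whereas Nploc4 (0.07, SE 0.06), Ube2j2 (-0.08, SE 0.07) and Rnf139 (0.07, SE 0.07) did not pass. Of 53 genes for translocation, glycosylation and vesicle export, 49 rose and 1, the signal peptidase subunit Spcs1 (-0.25, SE 0.07), fell (median 1.32). They included the vesicle coat gene Sec24d, from 11.2 ± 1.07 to 375 ± 19.5 CPM, the KDEL receptor Kdelr3 (4.48, SE 0.47), the mannosyltransferase Alg12 (2.76, SE 0.08) and the oligosaccharyltransferase subunits Stt3a (2.35, SE 0.05) and Rpn1 (2.13, SE 0.05). The small subunits Dad1 (-0.02, SE 0.09) and Ost4 (-0.05, SE 0.10) did not pass.

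Promoter sequences of the responding genes were read from RefSeq windows (build GRCm38.p6, 250 bases before to 50 after each annotated start) for letters of known stress elements on both strands. The letters searched were those of the ER stress element (ERSE, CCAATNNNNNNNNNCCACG, known to bind ATF6 with NF-Y), of ERSE-II (ATTGGNCCACG), of the CHOP-ATF response element (CARE, TGATGNAA, known to bind ATF4) and of the core of the UPR element (TGACGTGG, known for XBP1 and ATF6). ERSE and ERSE-II share their half-sites but differ in spacing and in the orientation of CCAAT, which ERSE-II holds as its reverse complement ATTGG. The stretches below are shown because they hold such letters beside genes whose rises are described here. They were chosen after the matches were seen. Each is given 5′ to 3′ on the strand of its gene with the matched letters in capitals, first 5 genes with ERSE, then Herpud1 with ERSE-II and CARE, then 5 genes with CARE.
Hspa5 (chr2:34772015-34772053, plus strand): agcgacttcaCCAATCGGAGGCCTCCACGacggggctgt
Hsp90b1 (chr10:86705523-86705666, minus strand): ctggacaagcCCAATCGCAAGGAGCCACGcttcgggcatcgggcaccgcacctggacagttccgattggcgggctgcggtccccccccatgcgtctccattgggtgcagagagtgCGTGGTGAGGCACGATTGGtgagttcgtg
Calr (chr8:84847065-84847103, minus strand): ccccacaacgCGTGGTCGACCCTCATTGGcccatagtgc
Derl3 (chr10:75893232-75893270, plus strand): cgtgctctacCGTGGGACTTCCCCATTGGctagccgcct
Creld2 (chr15:88819510-88819548, plus strand): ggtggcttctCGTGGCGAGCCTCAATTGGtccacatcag
Herpud1 (chr8:94386307-94386397, plus strand): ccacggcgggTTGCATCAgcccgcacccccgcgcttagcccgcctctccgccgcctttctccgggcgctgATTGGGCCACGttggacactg
Nupr1 (chr7:126625563-126625590, minus strand): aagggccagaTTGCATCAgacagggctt
Chac1 (chr2:119351039-119351066, plus strand): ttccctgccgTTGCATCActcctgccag
Atf3 (chr1:191183426-191183453, minus strand): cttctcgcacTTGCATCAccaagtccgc
Slc7a11 (chr3:50443643-50443689, minus strand): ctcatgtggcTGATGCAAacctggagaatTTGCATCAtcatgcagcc
Asns (chr6:7693215-7693242, minus strand): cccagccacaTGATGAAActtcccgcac

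A window was at hand for 10958 of the 15135 genes tested (72.4%), which is under 80%, so the shares below describe the genes with a window and are void as a check over all genes. ERSE letters were in the window of 19 of these 10958 genes (0.173%), of 11 of the 393 that rose at least 4-fold and had a window (2.8%) and of none of the 999 that fell at least 2-fold. For the ER chaperone list the count was 7 of 24 genes: Hspa5, Hsp90b1, Calr, Canx, Dnajc3, Creld2 and Pdia6. Canx and Dnajc3 are named here for their matches, after these were seen. CARE letters were in 297 of 10958 windows (2.71%), in 42 of the 393 (10.7%) and in 29 of the 999 (2.9%), and in 5 of 12 windows of tRNA synthetase genes. UPR element letters were in 113 (1.03%), 11 (2.8%) and 4 (0.4%) of the same sets, and ERSE-II letters in 9, 3 and none. Over all 27025 gene symbols with a window, the shares were 0.137% for ERSE, 0.0444% for ERSE-II, 4.51% for CARE and 0.714% for the UPR element. A match is a run of letters, and binding was not measured.

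Most genes of amino acid supply rose, beside 29.6% of all genes tested that rose and 31% that fell. Of 20 genes for amino acid synthesis and one-carbon metabolism, 14 rose and 4 fell, among them the folate enzymes Shmt1 and Mthfd1 (median 2.01), of 16 transporters 12 rose and 2 (Slc38a3 and Slc6a6) fell (median 1.59), and of 20 cytosolic aminoacyl-tRNA synthetases 16 rose and 1 fell (median 1.69). Asns, asparagine synthetase, was at 109.9, 89.9, 87 and 77.9 CPM in untreated libraries and at 995, 956, 969 and 939.9 CPM in treated ones (log2 fold change 3.40, SE 0.13, adjusted p = 1.93e-22). Slc7a11, the cystine importer, was at 0.351, 0.577, 0.663 and 0.357 CPM in untreated libraries and at 241, 259, 212 and 238 CPM in treated ones (log2 fold change 8.92, SE 0.34, adjusted p = 2.37e-22). In both cases the treated libraries formed a tight group far above the others. Cth, which makes cysteine from cystathionine, rose from 2.75 ± 0.718 to 106 ± 7.03 CPM (5.27, SE 0.24), while Cbs, the enzyme before it, stood at 4.73 ± 0.691 and 3.92 ± 0.732 CPM and did not pass (-0.27, SE 0.20). Pycr1, of mitochondrial proline synthesis, rose (3.92, SE 0.14). Other transporters that rose were Slc7a3, for cationic amino acids (6.75, SE 0.28), and Slc7a5 with its heavy chain Slc3a2 (3.55, SE 0.24 and 3.21, SE 0.10), for large neutral amino acids. The synthetases Nars (2.51, SE 0.07), Lars (2.34, SE 0.07) and Eprs (2.30, SE 0.06) rose, and Kars (-0.01, SE 0.09), Hars (0.12, SE 0.07) and Farsa (0.11, SE 0.06) did not pass. The 1 synthetase that fell, Qars (-0.22, SE 0.08), was no longer called when any of 4 single libraries was left out.

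Other effectors of ATF4 and CHOP also rose, 22 of 24, with Tnfrsf10b and Trib1 lower (median 2.02). Of all genes tested, 29.6% rose and 31% fell. Chac1, which degrades glutathione, was at 1.002, 1.42, 1.55 and 0.500 CPM in untreated libraries and at 199.5, 186, 199.8 and 187 CPM in treated ones (log2 fold change 7.40, SE 0.31, adjusted p = 3.76e-21). Pck2, the mitochondrial phosphoenolpyruvate carboxykinase, rose from 6.54 ± 1.13 to 279 ± 17.4 CPM (5.40, SE 0.20), Stc2, a secreted glycoprotein, from 4.58 ± 0.636 to 91.1 ± 3.75 CPM (4.31, SE 0.24) and Ndrg1 from 0.470 ± 0.285 to 12.1 ± 1.17 CPM (4.60, SE 0.43). Secreted factors came up in the same libraries: of 23 tested, 13 rose and 3 (Lif, Bmp4 and Angpt1) fell, and 18 more were below the filter. Vegfa, the vascular growth factor, was at 4.01, 4.04, 2.50 and 2.14 CPM untreated and at 361, 368, 305 and 346 CPM with thapsigargin (log2 fold change 6.72, SE 0.42, adjusted p = 4.64e-16). Gdf15, a stress hormone, was at 0.150, 0.0444, 0.147 and 0.143 CPM and at 9.25, 9.50, 3.86 and 3.74 CPM (log2 fold change 5.77, SE 0.53, adjusted p = 1.31e-11). The groups were separate for both genes, and for Gdf15 replicates 1 and 2 stood above 3 and 4. Bmp2 (6.17, SE 0.41) and Bdnf (5.24, SE 0.38) rose, and Scg2, a granin of secretory granules, reached 484 ± 42.8 CPM from 2.85 ± 1.02 CPM. For Fgf21, the metabolic hormone, 434 reads with thapsigargin stood against 1 read in untreated cells, a ratio of 438.8 with a 95% counting interval of 78.3 to 17370. Adm2 (adrenomedullin 2) had 149 reads against none, which is at least 50.2-fold higher when 3 reads are set as the floor over the untreated group. Csf1 (-0.06, SE 0.23), Pdgfa (0.43, SE 0.25) and Inhbb (0.08, SE 0.23) did not pass. The median of the list was 2.01, or 1.93 with genes that had no reads in 1 group set to their bound. Its 3 falls became 1 without thapsigargin replicate 2 or without untreated replicate 4. None was called among library numbers 1 to 20 alone or 21 to 40 alone. From summed isoform counts Lif was at -0.40 and was not called.

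Of 29 cell death genes, 8 rose and 14 fell (median -0.25), beside 29.6 and 31% of all genes tested. Hrk, which encodes a BH3-only protein that binds the survival proteins of the BCL2 family, was at 0.501, 0.755, 0.516 and 0.214 CPM in untreated libraries and at 41.04, 38.2, 40.6 and 38.7 CPM in treated ones (log2 fold change 6.23, SE 0.27, adjusted p = 2.10e-20). Bbc3, which encodes PUMA, another BH3-only protein, was at 15.9, 15.4, 15.03 and 17.2 CPM and at 41.7, 45.6, 35.3 and 30.8 CPM (log2 fold change 1.27, SE 0.20, adjusted p = 1.52e-06). Both genes were higher in all 4 treated libraries. Bcl2l11, which encodes BIM, was at 11.1, 11.6, 12.9 and 12.8 CPM and at 11.4, 11.2, 10.5 and 9.45 CPM, overlapping ranges whose small difference (log2 fold change -0.18, SE 0.07, adjusted p = 0.0467) was lost under 13 of the alternatives tried. The BH3-only gene Pmaip1 (NOXA) did not pass (log2 fold change -0.25, SE 0.18, adjusted p = 0.223), nor did Mcl1 (0.07, SE 0.06) or Apaf1 (-0.11, SE 0.11). Txnip, which binds thioredoxin, rose (3.77, SE 0.37) and Bok, a BCL2 relative of the ER (-1.78, SE 0.26), and Birc5, an inhibitor of apoptosis that is also a mitotic protein (-1.75, SE 0.21), fell. Of 20 p53 targets, 6 rose and 10 fell, and Trp53 itself did not pass (0.07, SE 0.13).

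DNA replication genes had the lowest median of the 35 gene lists. All 35 DNA replication genes tested were lower (31% of all genes tested were), with a median log2 fold change of -2.39, and their summed level fell from between 3207 and 4211 to between 715 and 860.3 CPM. Mcm3, a subunit of the replicative helicase, was at 158, 124, 161 and 110.1 CPM in untreated libraries and at 11.5, 10.4, 8.50 and 8.33 CPM with thapsigargin (log2 fold change -3.83, SE 0.31, adjusted p = 4.36e-13). Tk1, thymidine kinase, was at 48.7, 42.8, 41.3 and 32.9 CPM and at 3.13, 2.08, 2.77 and 2.30 CPM (log2 fold change -4.01, SE 0.36, adjusted p = 8.27e-12), and Chaf1b, a chaperone of newly made histones, fell by the same order (-4.08, SE 0.30). No treated library of these genes came near an untreated one. Mitotic genes fell less: 28 of 30, with a median of -0.95, although 14 of 30 were called among library numbers 1 to 20 alone (the labels number the libraries, and each range holds 2 of each group). Mki67, the proliferation marker, was at 655, 644, 815 and 776 CPM and at 279, 297, 215 and 267 CPM (log2 fold change -1.45, SE 0.23, adjusted p = 9.73e-07), and Cdk1, the mitotic kinase, went from 223 ± 27.3 to 74.9 ± 11.8 CPM (-1.57, SE 0.22). Cdc20 (-0.33, SE 0.21) and Cenpe (-0.50, SE 0.23) were the 2 that did not pass. Of 19 G1 regulators, 5 (Ccnd2, Cdkn1a, Cdkn1b, Cdkn2b and Rb1) rose and 9 fell, beside 29.6 and 31% of all genes tested. Cdkn2b, however, was at -0.11 from summed isoform counts and lost its call without thapsigargin replicate 1 or untreated replicate 4. Cdkn1a was not called among library numbers 1 to 20 (0.61), among library numbers 21 to 40 (0.50) or with library totals unscaled (0.43). Ccnd2 lost its call without thapsigargin replicates 1 and 2 (0.57). The cyclins Ccne2 (-3.07, SE 0.22) and Ccne1 (-2.19, SE 0.17) and their kinase Cdk2 (-2.66, SE 0.22) fell, and the inhibitor Cdkn1b (p27) rose from 131 ± 7.32 to 354 ± 27.7 CPM (1.43, SE 0.08).

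**Figure D3:**
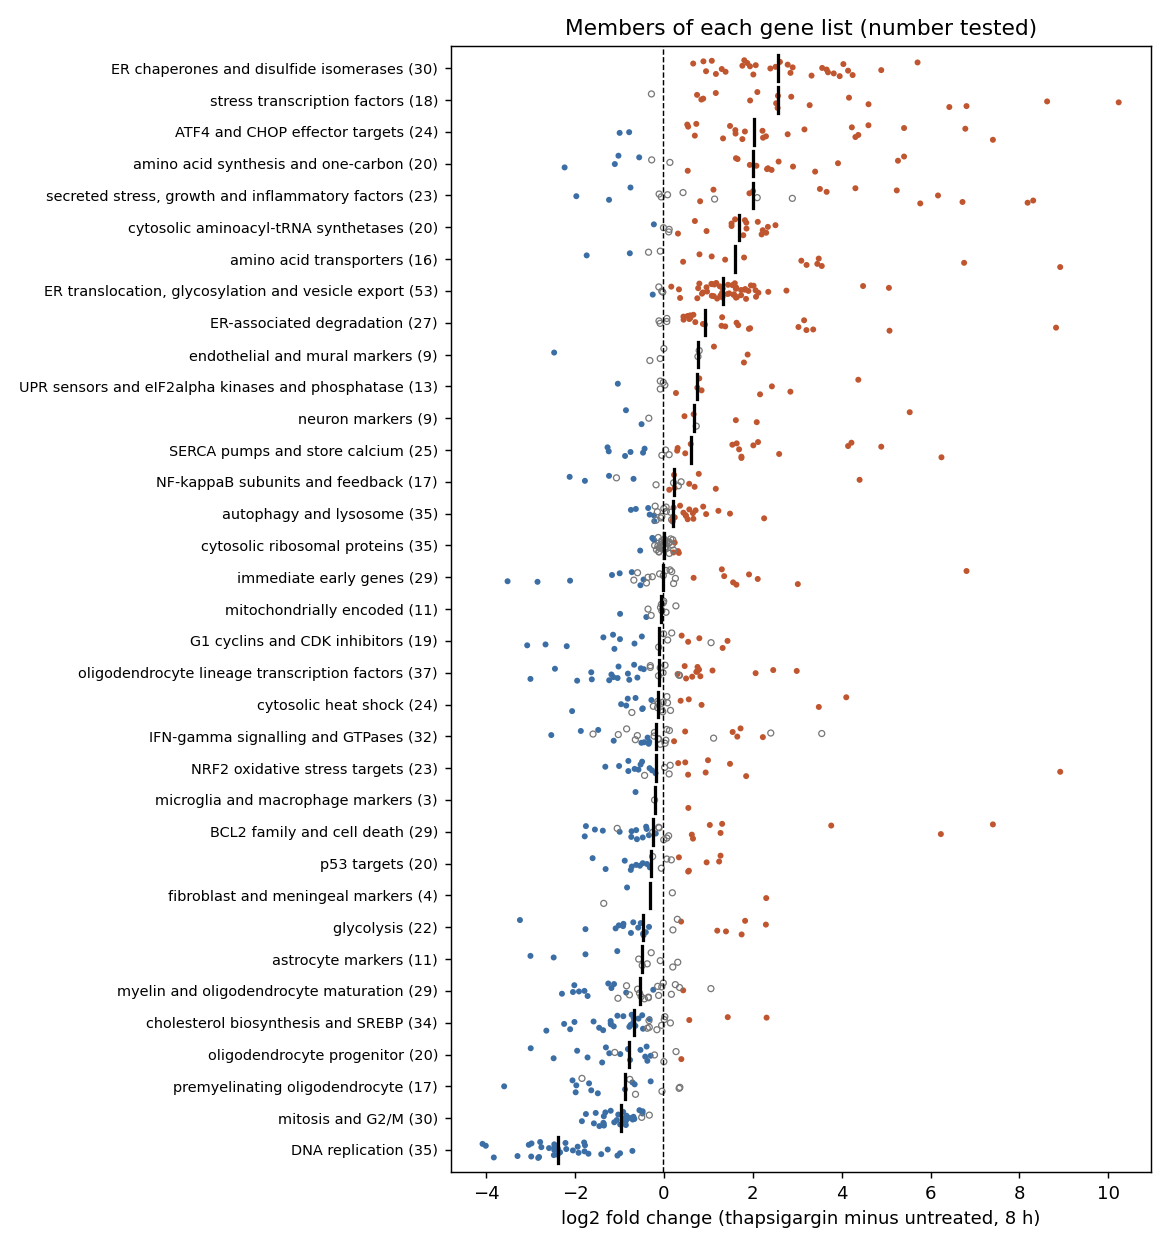
Each row is 1 gene list and each dot the log2 fold change at 8 h of 1 tested member, filled where the adjusted p is under 0.05 and open where it is not; the vertical tick is the list median and the dashed line the median of all genes tested. ER chaperones (median 2.56) and DNA replication (median -2.39) lie wholly on opposite sides of 0, while ribosomal protein genes (median 0.01) sit around 0.

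Progenitor and premyelinating genes of the oligodendrocyte lineage were mostly lower, beside 31% of all genes tested. Of 20 progenitor genes 15 fell and 1 (Lhfpl3) rose (median -0.78), of 17 premyelinating genes 11 fell and none rose (median -0.87), and of 29 myelin genes 11 fell and 1 (Cers2, a ceramide synthase) rose (median -0.55). Pdgfra, the receptor that keeps progenitors dividing, was at 2638, 2717, 2601 and 2637 CPM in untreated libraries and at 955, 975, 1072 and 1045 CPM in treated ones (log2 fold change -1.39, SE 0.17, adjusted p = 1.71e-08). Cspg4 (NG2), the other classical progenitor marker, was at 621, 644, 607 and 665 CPM and at 658, 599, 614 and 666 CPM, and its ranges overlapped throughout (log2 fold change -0.00, SE 0.18, adjusted p = 1). The pair of progenitor markers had unlike values in the same libraries. The lineage factor Olig1 fell from 1206 ± 118 to 312 ± 39.1 CPM (log2 fold change -1.95, SE 0.18, adjusted p = 9.33e-12), Olig2 from 816 ± 85.1 to 348 ± 33.05 CPM (log2 fold change -1.23, SE 0.13, adjusted p = 3.73e-10) and Sox10 from 589 ± 50.7 to 344 ± 47.8 CPM (log2 fold change -0.78, SE 0.12, adjusted p = 8.46e-07). Gpr17, a receptor of cells entering differentiation, was at 738, 863, 680.4 and 1499 CPM untreated, highest in replicate 4, and at 157, 168, 346 and 285 CPM with thapsigargin (log2 fold change -1.98, SE 0.36, adjusted p = 1.16e-05).

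Myelin genes split into those that fell and those that could not be told from untreated cells. The galactolipid enzyme Ugt8a fell from 268, 268, 318 and 424 CPM to 48.01, 59.1, 114 and 88.9 CPM (log2 fold change -2.04, SE 0.33, adjusted p = 1.56e-06). Cnp, an enzyme of non-compact myelin, went from 612, 605, 514 and 812 CPM to 135, 146, 276 and 218 CPM (log2 fold change -1.72, SE 0.29, adjusted p = 5.40e-06). In both genes the treated libraries were all lower, and replicates 3 and 4 stood above replicates 1 and 2. Mbp, myelin basic protein, was at 41.3, 39.97, 47.4 and 86.1 CPM and at 17.8, 26.3, 65.3 and 49.3 CPM, and overlapped (log2 fold change -0.44, SE 0.59, adjusted p = 0.542). Myrf, the factor that switches on myelin genes, fell (-1.18, SE 0.30), a call that was lost without thapsigargin replicates 1 and 2. In that fit 7 premyelinating and 7 myelin genes were called lower. Enpp6 (-0.64, SE 0.65), Cldn11 (-0.12, SE 0.18) and Sirt2 (-0.05, SE 0.37) did not pass. Of 37 transcription factors of the lineage, 13 rose and 16 fell, beside 29.6 and 31% of all genes tested. Sox9 fell from 90.6 ± 14.2 to 11.2 ± 3.56 CPM (-3.0, SE 0.41) and Hes5 (-2.45, SE 0.34) fell with it, whereas Id3, an inhibitor of basic helix-loop-helix factors, rose from 11.7 ± 2.62 to 64.7 ± 18.1 CPM (2.46, SE 0.25) and Zfp536 from 8.45 ± 0.697 to 35.3 ± 5.56 CPM (2.06, SE 0.21).

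**Figure D4:**
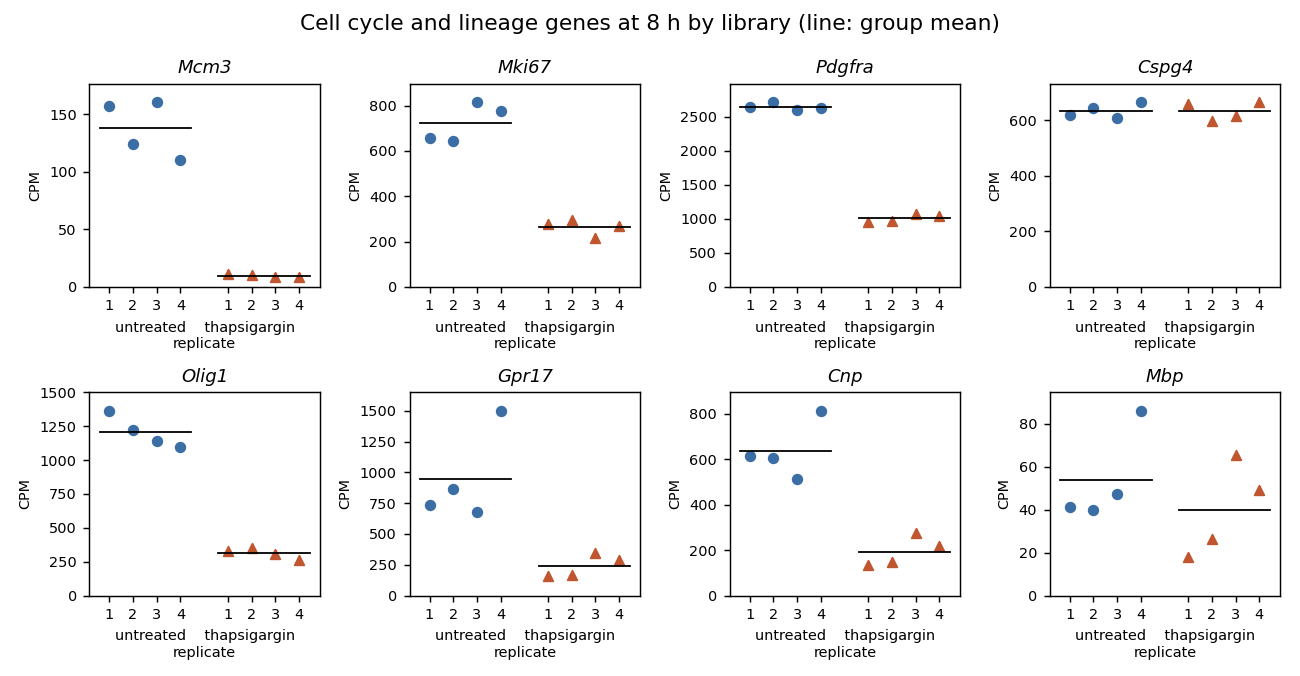
CPM in each of the 8 libraries for 8 genes of the cell cycle and the oligodendrocyte lineage, 1 panel per gene with its own linear axis from 0, untreated replicates 1 to 4 on the left and thapsigargin replicates 1 to 4 on the right; lines mark group means. Mcm3 and Olig1 are low in all treated libraries, Cspg4 is level, and in Gpr17, Cnp and Mbp untreated replicate 4 and thapsigargin replicates 3 and 4 stand high within their groups.

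Cholesterol synthesis, which supplies myelin membrane, was lower in 23 of 34 genes and higher in 3, namely Insig2, Abca1 and Abcg1 (median -0.68). Of all genes tested, 31% were lower and 29.6% higher. The call of Abcg1 (1.44, SE 0.52) was lost without untreated replicate 1 (1.22), without thapsigargin replicate 3 (0.85) and among library numbers 1 to 20 (0.43). Hmgcs1, an early enzyme of the pathway, was at 2658, 2578, 2316 and 1967 CPM untreated and at 1158, 1069, 717 and 748 CPM with thapsigargin (log2 fold change -1.37, SE 0.17, adjusted p = 2.44e-08). Acat2, which starts the pathway in the cytosol, fell from 385 ± 61.03 to 61.6 ± 11.1 CPM (-2.64, SE 0.15), and Dhcr7, at its end, from 127 ± 12.4 to 31.5 ± 5.34 CPM (-2.01, SE 0.12). The demethylase Cyp51 (-0.05, SE 0.18) and Insig1 (-0.34, SE 0.17), a sensor of ER sterol, did not pass. Treated replicates 3 and 4 were the lower pair for both genes. Abca1, the cholesterol exporter, rose (log2 fold change 2.31, SE 0.50, adjusted p = 1.47e-04) although its ranges overlapped, at 1.30, 2.04, 2.21 and 6.71 CPM and 5.81, 6.94, 24.9 and 21.4 CPM. Glycolytic genes fell in 14 of 22 and rose in 6 (median -0.46), among them Hk2 (1.75, SE 0.14) and the glucose transporter Slc2a3 (1.83, SE 0.08) upward and Aldoc (-1.76, SE 0.10) downward.

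Stress genes of other compartments were counted in the same way, beside 29.6% of all genes tested that rose and 31% that fell. Of 24 cytosolic heat shock genes 5 rose (Hspb8, Dnaja4, Hsf1, Chordc1 and Serpinh1) and 8 fell (median -0.13). Hspa8, the constitutive cytosolic HSP70, was at 2937, 2715, 2805 and 2557 CPM untreated and at 612, 605, 747 and 669 CPM with thapsigargin (log2 fold change -2.06, SE 0.08, adjusted p = 9.33e-23), a separation with no overlap, and the cochaperone Dnajb1 fell (-0.96, SE 0.08). Serpinh1, in that list but resident in the ER as a collagen chaperone, rose (4.10, SE 0.31). Hsp90ab1 (-0.14, SE 0.08) and Hspd1 (-0.14, SE 0.08), the mitochondrial chaperonin, did not pass. Of 23 targets of the oxidative stress factor NRF2, 8 rose and 11 fell (median -0.19), with Hmox1 (1.85, SE 0.11) higher and Prdx1 (-1.32, SE 0.09) and Txn1 (-1.01, SE 0.13) lower. Of 35 autophagy and lysosome genes 19 rose (median 0.20) and 6 fell, a count of falls that was 3 when any of 6 single libraries was left out. Atg13, of the initiating kinase complex, rose from 15.1 ± 2.35 to 72.1 ± 3.75 CPM (2.26, SE 0.13) and the receptor Sqstm1 from 124 ± 12.96 to 347 ± 12.2 CPM (1.49, SE 0.10), while Ctsd (-0.00, SE 0.08) and Gabarap (-0.05, SE 0.11) did not pass. Of 17 NF-kappaB genes 8 rose and 4 (Tnfaip3, Tnip1, Bcl3 and Ikbke) fell (median 0.23), and the rises were 5 without scaling of the totals. The inhibitor Tnfaip3 fell (-1.78, SE 0.27) and Nfkb2 rose (1.17, SE 0.14). Of 35 cytosolic ribosomal protein genes 4 (Rpl4, Rpl5, Rpl10a and Rps6) rose and 4 (Rpl11, Rps15, Rps24 and Rps25) fell (median 0.01). None of these rises was called with library totals unscaled or among library numbers 1 to 20, and Rpl5 was at -0.09 from summed isoform counts. The falls were 7 among library numbers 1 to 20, 1 among library numbers 21 to 40, and 1 or 2 without any of 4 single libraries. Of 11 mitochondrially encoded genes 2 (mt-Nd1 and mt-Nd3) fell.

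The 8 called genes with the largest fall in mean CPM, a measure that grows with level and transcript length, were Actb, Hspa8, Tuba1a, Pdgfra, Hmgcs1, Tubb5, Cntn1 and Vim. Actb, cytoplasmic actin, was at 7087, 6710.0, 6731 and 6547 CPM in untreated libraries and at 1686, 1635, 1791 and 1655 CPM in treated ones (log2 fold change -2.0, SE 0.05, adjusted p = 2.95e-27). Tuba1a (-1.49, SE 0.14) and Tubb5 (-1.55, SE 0.10), tubulins of dividing and growing cells, and Vim, vimentin (-0.95, SE 0.23), fell as well, and Cntn1, an adhesion molecule of the axon-glia contact, went from 2083 ± 114 to 949 ± 82.3 CPM (-1.13, SE 0.10). The nuclear transcript Malat1 was among the genes that gained most CPM, from 8073, 10730.0, 13240.0 and 13380.0 CPM to 18390.0, 20630.0, 15030.0 and 20670.0 CPM (log2 fold change 0.72, SE 0.15, adjusted p = 1.04e-04). Its lowest treated library lay just above its highest untreated one. The scaling of libraries bears on small changes. With library totals alone the median of all genes moved from -0.01 to -0.13 and 38.9% of 8799 calls were rises, against 48.9% of 9174, and the cause was not tested. Other falls among the 12 largest by the same rule were Slfn9 (-4.10, SE 0.25), of the Schlafen family, the kinase Map2k6 (-3.66, SE 0.22), Lmcd1 (-3.58, SE 0.19) and Sytl2 (-3.30, SE 0.16), a Rab27 effector of vesicle docking.

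The time course of the stress genes was asked by testing whether the thapsigargin effect differed between 1 h and 8 h, each against its own untreated cells. It did for 7181 of 15135 genes (47.4%), 3429 with a higher and 3752 with a lower effect at 8 h. Herpud1 was at 31.7 ± 2.42 CPM untreated and 68.95 ± 23.4 CPM treated at 1 h, and at 35.4 ± 3.66 and 1195 ± 96.1 CPM at 8 h (difference of log2 effects 3.96, SE 0.18, adjusted p = 1.44e-19). Atf4 was at 174 ± 10.5 and 374 ± 67.2 CPM at 1 h and at 160.0 ± 19.1 and 943 ± 47.8 CPM at 8 h (1.45, SE 0.16, adjusted p = 3.71e-09). Ddit3 was at 5.64 ± 0.271 and 32.6 ± 9.33 CPM at 1 h and at 6.47 ± 1.05 and 559 ± 27.3 CPM at 8 h (3.89, SE 0.21, adjusted p = 1.69e-17). For these 3 genes the treated mean was above the untreated mean at 1 h, and the distance was far larger at 8 h. Asns, in contrast, was at 96.7 ± 3.81 and 83.6 ± 6.08 CPM at 1 h, with the treated mean below the untreated one, and rose at 8 h (difference 3.61, SE 0.17, adjusted p = 4.77e-19). Slc7a11 (0.586 ± 0.177 and 0.720 ± 0.344 CPM at 1 h) and Trib3 (2.19 ± 0.165 and 1.89 ± 0.354 CPM at 1 h) were also near their untreated level at 1 h (differences 8.65 and 8.83). Hspa5 was at 542 ± 26.6 and 862 ± 98.3 CPM at 1 h (difference 3.29, SE 0.10, adjusted p = 1.28e-24), and Ern1 showed no difference between the times that passed (0.13, SE 0.11, adjusted p = 0.381).

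Egr1 and Egr2, immediate early genes, had opposite differences from untreated cells at the 2 times. Egr1, a growth-factor-induced transcription factor, was at 54.9 ± 6.01 CPM untreated and 211 ± 22.1 CPM treated at 1 h. At 8 h it was at 22.9, 16.4, 38.7 and 22.3 CPM in untreated libraries and at 4.50, 3.84, 2.19 and 3.15 CPM in treated ones (log2 fold change -2.84, SE 0.40, adjusted p = 1.67e-07), and the difference of effects was -4.78, SE 0.52, adjusted p = 1.87e-09. Egr2, its relative, followed the same course, at 32.4 ± 3.68 and 72.8 ± 11.8 CPM at 1 h and at 9.66 ± 2.86 and 0.814 ± 0.305 CPM at 8 h (difference -4.69, SE 0.43, adjusted p = 4.39e-11). Fosl2 did not: its treated mean was the higher at both times, at 14.6 ± 0.492 and 37.96 ± 13.5 CPM at 1 h and 6.91 ± 3.33 and 55.4 ± 14.3 CPM at 8 h (difference 1.63, SE 0.33, adjusted p = 1.07e-04). Of the 29 immediate early genes tested, 9 were higher and 8 lower at 8 h, shares close to the 29.6 and 31% of all genes tested, and Jun (0.22, SE 0.16) and Myc (0.18, SE 0.09) did not pass.

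**Figure D5:**
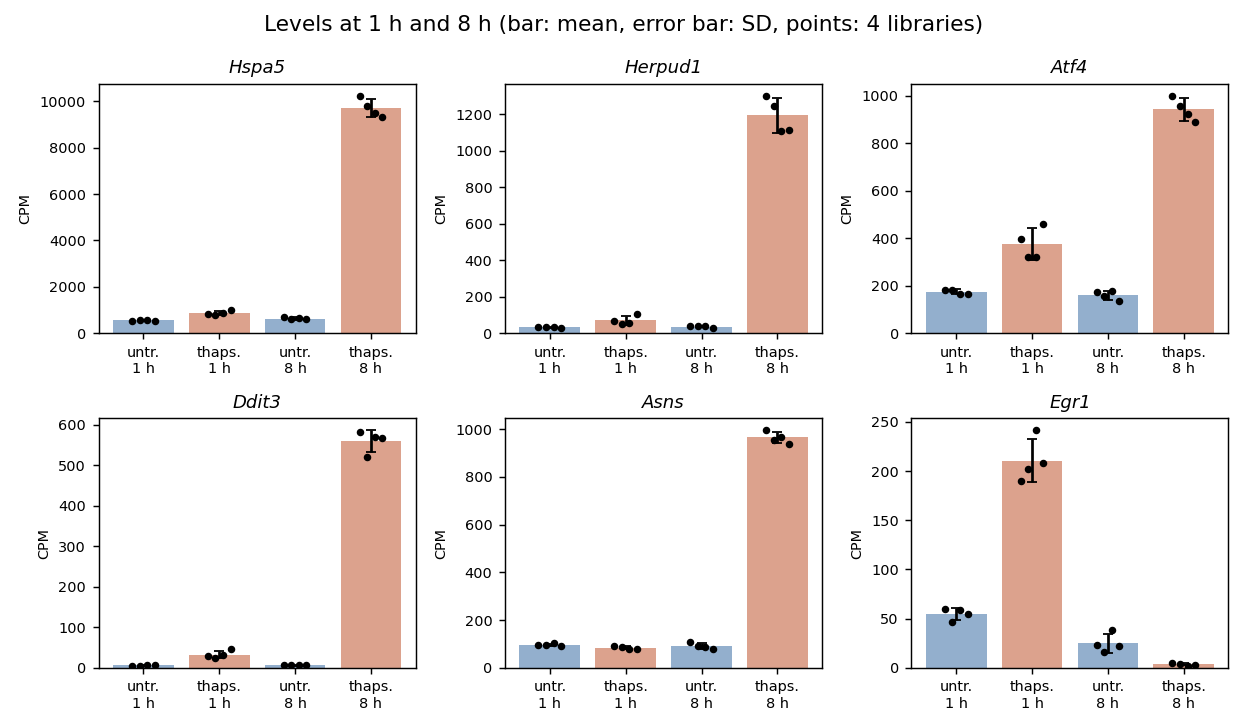
Mean CPM (bars, from 0) with SD and the 4 single libraries (points) for 6 genes in untreated and thapsigargin cells at 1 h and 8 h. Atf4, Ddit3, Herpud1 and Hspa5 are highest in thapsigargin cells at 8 h, Asns differs from untreated cells at 8 h and not upward at 1 h, and Egr1 is highest in thapsigargin cells at 1 h and lowest in them at 8 h.

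Cells given IFN-gamma for 8 h served as a second stimulus at the same time, compared directly with the thapsigargin cells. Its replicates 1 and 3 held 7.28 and 0.661 CPM of Y-linked genes and 590 and 420 CPM of Xist, against 311 CPM or more and 9.6 CPM or less in its replicates 2 and 4, and replicate 1 held 9.68% of reads on features rich in ribosomal RNA. The part of these differences in the comparison was not tested beyond leaving out each library, which gave 8872 to 8983 called genes. The groups differed in 9289 genes (61.4%), 4528 higher and 4761 lower with thapsigargin. Hspa5 was at 676 ± 16.4 CPM with IFN-gamma against 9715 ± 404 CPM with thapsigargin (3.85, SE 0.07, adjusted p = 1.63e-30). Irgm1, an interferon-induced GTPase, was at 2362 ± 113 CPM with IFN-gamma, 80.1, 88.01, 59.7 and 81.8 CPM in untreated libraries and 12.8, 13.1, 13.6 and 14.1 CPM with thapsigargin, where it fell against untreated cells (log2 fold change -2.53, SE 0.18, adjusted p = 2.94e-14). Gbp3, another such GTPase, rose with thapsigargin, from 5.58 ± 0.359 to 17.4 ± 2.05 CPM (1.65, SE 0.20), beside 1223 ± 74.3 CPM with IFN-gamma. Against untreated cells, 6 of 32 IFN-gamma genes rose and 9 fell (median -0.17), and in the direct test 30 of the 32 were lower with thapsigargin than with IFN-gamma (31.5% of all genes tested were, and 29.9% were higher). All 30 ER chaperone genes and none of the 35 DNA replication genes were higher with thapsigargin than with IFN-gamma in the direct test, and all 35 of the latter were lower. For Atf3, thapsigargin stood at 56.5 ± 7.88 CPM and IFN-gamma at 9.96 ± 2.68 CPM (2.50, SE 0.26, adjusted p = 2.75e-10). Pdgfra was at 1441 ± 70.05 CPM with IFN-gamma and was lower with thapsigargin (direct difference -0.51, SE 0.17, adjusted p = 0.0103). Gpr17 was at 232 ± 70.4 CPM with IFN-gamma and 239 ± 92.2 CPM with thapsigargin, a difference that did not pass (0.04, SE 0.35, adjusted p = 0.924). The untreated and thapsigargin libraries are shared between these comparisons.

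Transcript shares were read from the deposited isoform table for 9 genes. Of the estimated counts of Ddit3, the coding transcript Ddit3-201 held 50.03 to 66.3% in untreated libraries and 90.8 to 92.2% with thapsigargin, the other coding transcript Ddit3-203 12.4 to 18.4% and 2.23 to 2.905%, and the retained-intron transcript Ddit3-202 20.2 to 31.6% and 5.02 to 6.34%. The ranges did not overlap, with about 105 estimated counts of Ddit3-201 per untreated library and 9565 per treated one. For Xbp1-201 the shares were 86.99 to 90.7% and 84.2 to 87.3%. Which of these transcripts carry the form spliced by IRE1 was not examined. Exact permutation over 4 against 4 libraries cannot go below 0.0286, and none of the 24 transcripts tested passed after adjustment (two-sided, smallest adjusted p 0.137). At an unadjusted p under 0.05 there were 5 of 24. Shares of Atf3 were not formed because its counts in untreated cells were too few.

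Markers of other cell types were tested in the same way, beside 29.6% of all genes tested that rose and 31% that fell. Of 9 neuronal genes 5 (Snap25, Tubb3, Nefl, Nefm and Gad1) rose and 2 (Syt1 and Dcx) fell, and the falls were 1 without any of 5 single libraries. Nefl was not called without untreated replicate 2, among library numbers 1 to 20 or 21 to 40, or with library totals unscaled. Nefm was not called among library numbers 21 to 40. Gad1, which makes GABA, was at 0.200, 0.400, 0.221 and 0.214 CPM untreated and at 16.7, 14.9, 8.95 and 10.2 CPM treated (log2 fold change 5.53, SE 0.40, adjusted p = 3.14e-14), Snap25 (2.09, SE 0.14) and Tubb3 (1.62, SE 0.13) rose, and Dcx (-0.85, SE 0.20) fell. The defining neuronal genes Slc17a7, Slc17a6 and Rbfox3 had 6, 3 and 31 reads over the 4 untreated libraries and 6, none and 49 over the treated ones. The summed level of the neuronal list was 1206 to 1381 CPM untreated and 1100 to 1193 CPM treated, most of it Map2, at 1123 ± 65.99 and 888 ± 39.6 CPM (-0.34, SE 0.15, not passed). Of 11 astrocyte genes none rose (Slc1a3, at 122, 118, 115 and 93.2 CPM and 148, 156, 127 and 126 CPM, did not pass, log2 fold change 0.31, SE 0.15, adjusted p = 0.076, but did by DESeq2, with a term for the library numbers, with the compared groups alone and without thapsigargin replicate 3 or 4) and 4 fell, namely S100b, Sox9 and Fgfr3, which are known also from the oligodendrocyte lineage, and the glycolytic gene Aldoc, while Gfap did not pass (0.20, SE 0.32). The summed level of that list was 454 to 552 CPM untreated and 244 to 289 CPM treated. Of 3 tested microglial genes 1 (P2ry12, not without any of 3 single libraries) rose and 1 fell (sum 22.5 to 26.9 and 17.9 to 18.9 CPM), of 9 endothelial and mural genes 3 (Pecam1, Rgs5 and Kcnj8, but 1 without untreated replicate 3) rose and 1 (Acta2, at -2.47, SE 0.71 here and 0.01 from summed isoform counts) fell (615.5 to 672 and 609 to 676 CPM, nearly all of it Cspg4), and of 4 fibroblast genes 1 (Fn1) rose and 1 (Ptgds, joined by Lum without thapsigargin replicate 1, and not called among library numbers 21 to 40 or without thapsigargin replicates 1 and 2) fell (18.4 to 26.4 and 23.4 to 32.1 CPM). Pecam1, Rgs5 and Kcnj8 had only 14, 13 and 28 reads over the untreated libraries and 49, 48 and 61 over the treated ones. No endothelial or mural gene was called higher from summed isoform counts. Among library numbers 1 to 20, or without thapsigargin replicates 1 and 2, 1 was called higher. Fn1 encodes fibronectin (2.30, SE 0.22).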

How the data were processed

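RNA of 40 libraries (10 groups of 4) was sequenced in bulk, and each library was placed in its group by the treatment and time point in its labels. The authors deposited 2 tables, whole-number read counts per gene and estimated counts per transcript that need not be whole. The submitters' processing notes name STAR, featureCounts, kallisto and edgeR, with no versions. No source used here gives the build, annotation or strand setting, so reads of overlapping genes, antisense partners or near-identical copies cannot be told apart. Gene names came from the GENCODE M21 annotation, which matched 38872 of 39056 identifiers.

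Counts per gene were fitted with edgeR 4.0.16 (R 4.3.3) in a quasi-likelihood model over the 10 groups, TMM scaling, its filter on low counts and a prior count of 0.125. Benjamini-Hochberg adjustment ran over the 15135 genes tested, and an adjusted p under 0.05 was called. The change of the effect between times and the comparison with IFN-gamma were contrasts of the same fit. Counts were simulated for 14836 genes, with changes of 1.5-, 2- and 4-fold put into 67, 67 and 66 well-counted genes and none into the rest. The fit recovered 71.6% of changes of 1.5-fold, 91% of 2-fold and 100% of 4-fold, and 15 of its calls (7.89%) were false. In the data 60.6% of genes were called, low-count genes among them. The simulated rates therefore describe the simulated setting and not the calls reported here. Depth was 13165483 to 22651092 reads on genes over the 40 libraries.

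The comparison, its 35 gene lists and the rules were chosen with earlier results of these data known. Named were the 12 largest rises and falls (mean log2 CPM of at least 1, groups not overlapping), the 8 largest changes of mean CPM each way, up to 6 called and 3 uncalled members of each list, the largest differences between times and from IFN-gamma, and a set of stress and lineage genes. Genes named to spell out a small count, with Canx, Dnajc3 and Xist, were chosen after their values were seen. Some genes that enter the counts are not reported here by name. Estimated counts of transcripts were turned into shares of their gene (at least 20 estimated counts in each library) and tested by exact permutation, two-sided, or summed per gene and rounded for an alternative. Promoter windows were RefSeq sequences of build GRCm38.p6. The alternatives tried were RLE scaling, no filter, DESeq2 1.42.0, the compared groups alone, library numbers 1 to 20 and 21 to 40 as a block or alone, a Y-linked covariate, summed isoforms and each library left out. Another 3 were chosen after seeing the data: library totals without scaling, features rich in ribosomal RNA left out, and thapsigargin replicates 1 and 2 left out.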

Additional observations from a re-analysis of the deposited data

Results flagged for a closer look

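Of 460 sets of 4 libraries of 1 group, 20 (4.35%) held a library far from the other 3, and chance gives about 1 in 20. Of these, 5 were in untreated replicate 4, which the second principal component also set apart. It held 86.1 CPM of Mbp (40.0 to 47.4 in the other untreated libraries), 664 CPM of Sox10 (555 to 570.2), 9.49 CPM of Zfp536 (8.03 to 8.17), 195 CPM of Sel1l (181 in each of the others) and 6.71 CPM of the cholesterol exporter Abca1 (1.30 to 2.21). In 3 of these genes (Mbp, Sox10 and Zfp536) the library with most of a gene of the oligodendrocyte lineage was thus the same untreated one.

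Untreated replicate 3 was low in Gabarap (126 CPM) and Sqstm1 (104 CPM) and high in Ryr2 (3.17 CPM). Untreated replicate 1 was high in Sdf2l1 (53.8 CPM) and held the 1 read of Fgf21 (0.0501 CPM, the others 0). Untreated replicate 2 was high in Gad1 (0.400 CPM) and low in Gdf15 (0.0444 CPM), levels of a few reads. With thapsigargin, replicate 3 was low in Atg13 (66.5 CPM), Hsf1 (36.95 CPM) and Slfn9 (1.42 CPM) and high in Slc3a2 (674 CPM). Treated replicate 1 was low in Nefl (5.61 CPM) and high in Sec24d (404 CPM), replicate 2 was high in Pecam1 (1.01 CPM) and replicate 4 low in Cth (96.0 CPM).

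The thapsigargin effect differed between 8 h and 1 h, by edgeR's test of that difference, for 10 genes whose time course is given above. The difference of log2 effects (8 h minus 1 h) was 8.83 for Trib3, 8.65 for Slc7a11, 3.96 for Herpud1, 3.89 for Ddit3, 3.61 for Asns, 3.29 for Hspa5, 1.63 for Fosl2 and 1.45 for Atf4. For the growth factor response genes Egr1 and Egr2 it was -4.78 and -4.69.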

How the results depend on the processing

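Every count of called genes kept within 1.5 times its value under each alternative run. For thapsigargin against untreated cells it was 7418 (library numbers 21 to 40 alone) to 9349 (those numbers as a block), against 9174, with 9141 by DESeq2 and 8706 to 8940 when 1 library was left out. It was 8058 without thapsigargin replicates 1 and 2, which hold most ribosomal RNA. The change of the effect between times was called for 6302 (no filter) to 7881 genes (compared groups alone), against 7181, and the comparison with IFN-gamma for 8787 to 9650, against 9289. No paired analysis was possible because the labels give no replicate numbers shared between groups.

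Of 6523 values of 327 named genes over 20 alternatives, 6226 kept direction and side of the threshold, 202 lost the call, 92 gained it and 3 turned. The genes that turned did so in the isoform table, Acta2 to 0.0069 (-2.47 in the gene table), Cdkn2b to -0.1097 (0.80) and Rpl5 to -0.0894 (0.22), and the cause was not tested. Members of lists called higher or lower moved by over 1.5 times in 82 counts, none for ER chaperones or DNA replication. Genes called higher in the endothelial and mural list were 1 rather than 3 with the compared groups alone. Low reads limit the low genes, as with Fgf21, and counting intervals cover counting error only.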

Other observations

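Some of the widest changes fell outside the groups of genes described above. Trim66, a member of the tripartite motif family, was at 0.250, 0.311, 0.295 and 0.214 CPM in untreated replicates 1 to 4 and at 164, 171, 136 and 167 CPM with thapsigargin, a rise that separated the groups by orders of magnitude (log2 fold change 9.17, SE 0.28, adjusted p = 7.37e-25, edgeR). Among the falls, Tcf19, a factor of proliferating cells, was at 69.1, 60.3, 72.05 and 53.6 CPM and at 5.86, 5.02, 3.67 and 4.33 CPM (-3.74, SE 0.26). The calcium-binding S100 genes S100a6 (-3.43, SE 0.46) and S100a3 (-3.30, SE 0.43) and the folate receptor Folr2 (-3.61, SE 0.51) fell from low levels. Soat2, which esterifies cholesterol, went from 0.0295 ± 0.0361 to 3.86 ± 0.676 CPM (6.78, SE 0.76). Its 272 reads with thapsigargin stood against 2 in untreated cells, a ratio of 137.5 with a 95% counting interval of 37.7 to 1141.

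Of the IFN-gamma list, 6 further genes had these values. Tap1, a subunit of the peptide transporter of antigen presentation, fell with thapsigargin from 14.8 ± 1.06 to 4.06 ± 0.820 CPM (log2 fold change -1.87, SE 0.17, adjusted p = 1.02e-11, edgeR), beside 466 ± 24.4 CPM with IFN-gamma. H2-K1, a class I heavy chain whose reads may be shared with near-identical relatives, rose from 7.11 ± 2.11 to 21.04 ± 3.005 CPM (log2 fold change 1.55, SE 0.21, adjusted p = 9.91e-08), beside 139 ± 9.96 CPM with IFN-gamma. Psmb9, of the immunoproteasome, fell (-1.48, SE 0.37) from under 2 CPM in every untreated library. B2m, the class I light chain (-0.21, SE 0.14), the receptor subunit Ifngr1 (-0.08, SE 0.07) and the kinase Jak1 (0.03, SE 0.06) did not pass.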
